A study of Mus musculus with 20 samples.

Results

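The expression of 9 genes of retinoid metabolism was followed in livers of wild-type and LXR-deficient mice: Rbp4, Lrat, Adh1, Adh7, Dhrs3, Aldh1a1, Aldh1a2, Aldh1a3 and Cyp26a1. Every probe whose gene name in the array files was that of a member was taken, which gave 14 of the 41174 probes and 9 of the 27845 gene names on the array. The study compared gene expression in the liver of 28-week-old male mice of a mixed Sv129/C57Bl6J background after 7 weeks on either diet, with 5 mice in each of 4 groups. The groups were LXR alpha/beta double knockout mice (KO) on Western diet, KO mice on normal diet, wild-type mice (WT) on Western diet and WT mice on normal diet. The Western diet was TD.88051, named in the labels as a cocoa butter diet with Purina mouse chow, and the normal diet was a Teklad rodent chow. The retinoid content of either diet is not given in the sources used here, and no retinoid was measured. The labels name no Cre line or promoter for the knockout, so the tissue and age at which the receptors were lost are not given. The RNA came from pieces of the large lobe of the liver, and each liver had its own single-colour array.

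The liver takes up dietary retinol (vitamin A), esterifies it for storage in stellate cells, and returns it to the blood bound to the carrier Rbp4. Inside cells retinol is oxidised to retinal by alcohol and retinol dehydrogenases, and retinal is oxidised irreversibly to retinoic acid by the Aldh1a enzymes. Retinoic acid activates RAR receptors paired with RXR and is cleared by Cyp26 enzymes, whose gene Cyp26a1 is itself induced by retinoic acid. The liver X receptors, deleted here, sense oxidised cholesterol and also pair with RXR.

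Levels are log2 processed signals scaled to their own array, whose 75th percentile was subtracted. A level of 0 is thus the 75th percentile, and levels of different probes are not compared. That percentile lay between 339.7 and 435.1 intensity units on the KO Western-diet arrays and between 170.3 and 330.8 units on the other 15 arrays, and 53.6% to 67.12% of the probes of an array were well above background. Nr1h3, which encodes LXR alpha, lay between -5.44 and -3.74 in the KO groups, against 3.82 to 4.68 in the WT groups. Nr1h2, which encodes LXR beta, lay between -5.75 and -3.57 in the KO groups, against 0.60 to 1.01 in the WT groups. Both receptors separated the genotypes as the labels give them.

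Of the 14 probes, 11 probes of 8 genes gave a measured level. The Rbp4 probe was saturated on all 20 arrays. An Aldh1a3 probe (A_52_P113518) and an Adh1 probe (A_52_P835985, listed on the opposite strand to the other Adh1 probes) were not well above background on any array. "Rose", "fell" and "changed" below mean an adjusted p under 0.05 in limma, with Benjamini-Hochberg adjustment over all probes tested in that comparison, and differences are given ± SE.

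The retinoid genes did not move as a block. Cyp26a1 was high in KO livers on normal diet and moved in opposite directions with Western diet in the genotypes. Aldh1a1 fell on Western diet in both genotypes, Aldh1a2 rose in KO livers on Western diet, and Dhrs3 was lower in KO livers on both diets. The measured probes of the Adh1 and Adh7 alcohol dehydrogenases differed by at most 0.44 log2 units in any comparison on this scale.

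On Western diet, 7 of the 11 probes differed between KO and WT livers, where 58.8% of all probes did: 2 were higher (23% of all probes) and 5 lower (35.8%). On normal diet 3 of 11 differed, against 18.5% of all probes: 1 was higher (10.1% of all probes) and 2 lower (8.41%). Western diet changed 6 of 11 probes in KO livers, against 50.9% of all probes: 2 were higher (20.6% of all probes) and 4 lower (30.2%). In WT livers it changed 2 of 11, against 5.11% of all probes: 1 was higher (2.68% of all probes) and 1 lower (2.43%). The diet response itself differed between the genotypes for 4 of 11 probes, against 27% of all probes: 1 term was positive (11.5% of all probes) and 3 negative (15.5%). The shares of the retinoid probes thus lay near those of the whole array on Western diet, and the comparisons share groups, so their counts are not independent. The median difference of the 11 probes was -0.34 (all probes -0.21) for genotype on Western diet and 0.09 (all probes -0.08) on normal diet. It was -0.29 (all probes -0.16) for Western diet in KO livers and -0.14 (all probes -0.03) in WT livers. Of the higher calls on Western diet, that of the dim Aldh1a3 probe, in both comparisons with KO Western-diet livers, came from a probe that entered the test only through that group, where it is high. Scaling moved the split: for genotype on Western diet, quantile normalization gave 4 higher and 3 lower, and the authors' deposited matrix gave 4 higher and 1 lower.

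**Figure D1:**
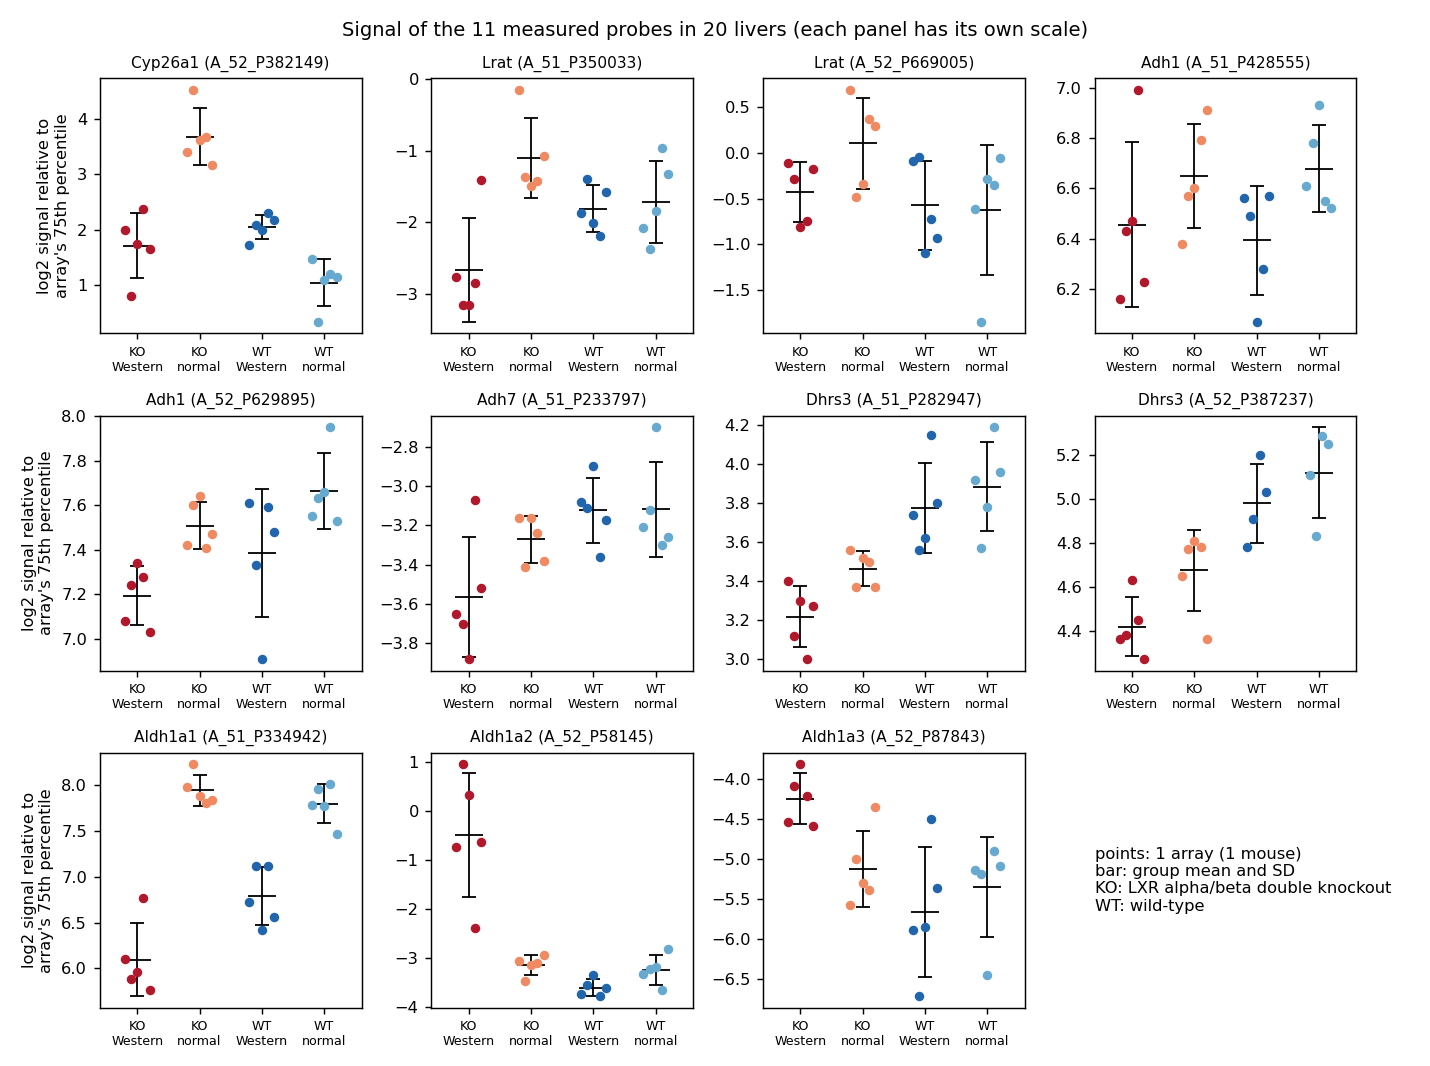
Log2 signal relative to the 75th percentile of the array (y axis) of the 11 measured probes in KO Western, KO normal, WT Western and WT normal livers (x axis); each point is 1 liver, and the bar and whiskers are the group mean and SD. Cyp26a1 in the KO normal-diet livers (3.18 to 4.53) and Aldh1a2 in the KO Western-diet livers (-2.39 to 0.95) lay above the other 3 groups.

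**Figure D2:**
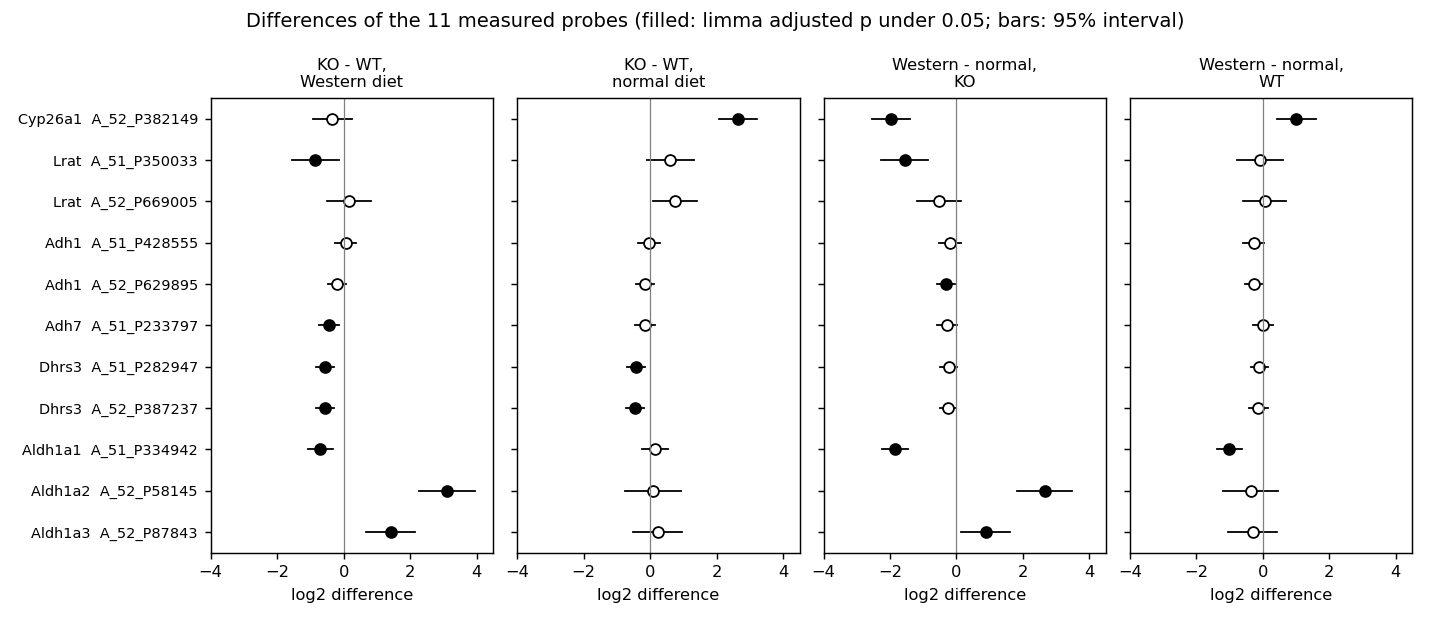
Log2 differences (x axis) of the 11 measured probes (rows) in 4 comparisons, with 95% intervals; filled points passed adjusted p under 0.05 in limma. Cyp26a1 stood at -0.34, 2.64, -1.97 and 1.01 from the left panel to the right, and Aldh1a2 at 3.11, 0.09, 2.65 and -0.36.

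Rbp4 encodes the plasma carrier that hepatocytes secrete to deliver retinol to other tissues. Its probe (A_51_P374752, mm8 chromosome 19, 38181783 to 38181842) read 65117 to 65535 raw units on all 20 arrays, at or just under the ceiling of the scanner. No difference in Rbp4 was therefore measured in any comparison. Its normalized values still differed by -0.48 between KO livers on Western and normal diet and by -0.35 between KO and WT livers on Western diet, which is the shift that the scaling of the arrays alone gives to a probe at the ceiling. Differences of that size in other bright probes carry the same dependence on scaling. Ttr, transthyretin, which binds Rbp4 in plasma, was not saturated. It read 2.68, 2.45, 1.82, 3.14 and 2.36 in KO livers on Western diet, against 4.59, 4.21, 4.63, 4.59 and 4.59 in WT livers on Western diet. All 5 KO livers on Western diet lay below every other liver, those of KO mice on normal diet included (4.15 to 4.73). Ttr fell by 2.03 ± 0.18 with genotype on Western diet (adjusted p = 2.73e-08 in limma) and differed by -1.95 ± 0.18 with Western diet in KO livers (adjusted p = 7.87e-08).

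**Figure D3:**
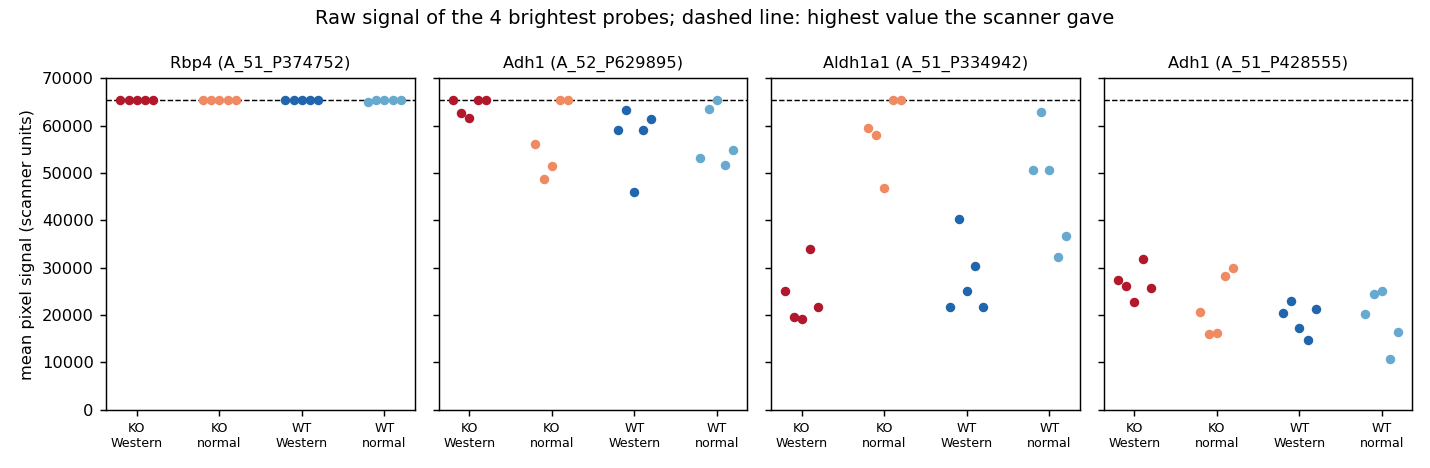
Raw mean pixel signal in scanner units (y axis, from 0) of the 4 brightest retinoid probes in KO Western, KO normal, WT Western and WT normal livers; the dashed line is the highest value that the scanner gave, 65535. Rbp4 lay at or just under this line on all 20 arrays. The scanner files flagged 1 Adh1 probe as saturated on 6 arrays and Aldh1a1 on 2 arrays of KO livers on normal diet.

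Lrat, lecithin retinol acyltransferase, makes the retinyl esters that stellate cells store. Its 2 probes start 2804 bases apart on mm8 chromosome 3 and did not give the same calls. A_51_P350033 (82981614 to 82981673) read -2.76, -3.14, -3.15, -2.84 and -1.41 in KO livers on Western diet. In KO livers on normal diet it read -0.16, -1.37, -1.49, -1.43 and -1.08. KO Western-diet mouse 5 stood apart from its group and overlapped the normal-diet livers, and the other 4 lay below them. This probe fell by 1.55 ± 0.34 with Western diet in KO livers (adjusted p = 0.000816 in limma), and the diet response differed between genotypes by -1.46 ± 0.47 (adjusted p = 0.0287).

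Between KO and WT livers on Western diet the same Lrat probe was lower by -0.85 ± 0.34 (adjusted p = 0.0355 in limma), with overlapping groups. That call was lost with slide as a block (-0.70, adjusted p = 0.0679), and on slide 10 the difference was 0.79. It was also lost with no filter on dim probes (adjusted p = 0.051), with background correction by the normexp model (-0.56, adjusted p = 0.132), in the authors' deposited matrix (-0.45, adjusted p = 0.0773), and without KO mouse 1, 2, 3 or 4 or WT mouse 2 or 5 on Western diet (adjusted p 0.0615 to 0.091). The genotype-by-diet call was lost with normexp (-0.99, adjusted p = 0.148) and without KO mouse 2 or 3 or WT mouse 2 or 5 on Western diet, or WT mouse 1 or 2 on normal diet (adjusted p 0.0502 to 0.0586). The other probe, A_52_P669005 (82978810 to 82978869), was called in no comparison. For genotype on normal diet it stood at 0.74 ± 0.31 (95% interval 0.08 to 1.40, adjusted p = 0.112), and for Western diet in KO livers at -0.53 ± 0.31 (adjusted p = 0.168).

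Lrat marks stellate cells, so the other stellate markers are given beside it. In whole liver, fewer cells of a type and less RNA per cell cannot be told apart. For Western diet in KO livers, 4 of 17 other stellate markers rose and 7 fell, where 20.6% of all probes rose and 30.2% fell. Angptl6 fell by 2.36 ± 0.17, the nerve growth factor receptor Ngfr fell by 1.92 ± 0.24, and Lum, which encodes lumican, rose by 2.17 ± 0.26 (adjusted p at most 2.69e-06 in limma). The summed signal of the 17 markers was 59.9 to 130 in KO livers on Western diet and 92.8 to 147 on normal diet. In WT livers it was 45.1 to 107 on Western diet and 38.5 to 126 on normal diet, and each marker was well above background on at least 1 array. The part of these cells in the Lrat result was not tested.

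Adh1 encodes the abundant hepatic alcohol dehydrogenase that also oxidises retinol, and Adh7 encodes a class that in mice is found mainly in the stomach and epithelia. Their nearest probes that passed the filter lie 58 kb apart on mm8 chromosome 3. The unsaturated Adh1 probe, A_51_P428555 (138227274 to 138227927 with a gap, as the files list it), was called in no comparison. It averaged 6.46 ± 0.32 in KO livers on Western diet, 6.65 ± 0.20 in KO livers on normal diet, 6.40 ± 0.22 in WT livers on Western diet and 6.68 ± 0.17 in WT livers on normal diet (SD, n = 5 each). All 4 groups overlapped, and its genotype difference on Western diet had a 95% interval of -0.26 to 0.38. Under quantile normalization this probe was instead higher in KO livers on Western diet by 0.50 (adjusted p = 0.0103 in limma), and by 0.47 in the authors' deposited matrix (adjusted p = 0.0073).

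The brighter Adh1 probe, A_52_P629895 (138227244 to 138227303), was saturated on 3 KO arrays on Western diet, 2 KO arrays on normal diet and 1 WT array on normal diet. It was lower in KO livers on Western than on normal diet by -0.32 ± 0.13 (adjusted p = 0.0455 in limma). Its genotype difference on Western diet was -0.19 ± 0.13 (adjusted p = 0.21), and -0.31 (adjusted p = 0.0228) without WT mouse 3 on Western diet. It was instead higher in KO livers under quantile normalization (0.25, adjusted p = 0.0246) and in the authors' deposited matrix (0.21, adjusted p = 0.036). For diet in KO livers the direction also turned under these settings (0.22 and 0.09, not called), and the call was lost with median scaling (-0.26), either normexp correction (-0.04 and -0.16), no filter on dim probes, slide or replicate number as a block (-0.32 each), and without the saturated spots (-0.26), at adjusted p 0.0589 to 0.911. It was also lost without 12 of the 20 livers in turn (adjusted p 0.0505 to 0.103): KO mice 1, 2 and 5 and WT mice 2 and 5 on Western diet, KO mice 2, 3 and 5 and WT mice 1, 2, 3 and 5 on normal diet. Adh7 (A_51_P233797, 138168918 to 138168977) was dim, at 49 to 83 raw units, though well above background on all 20 arrays. It was lower in KO than in WT livers on Western diet by -0.44 ± 0.14 (adjusted p = 0.0139), with 1 KO liver (-3.07) inside the WT range of -3.36 to -2.90. That call was lost with normexp (-0.46, adjusted p = 0.376) and in the authors' deposited matrix (-0.18, adjusted p = 0.051). Adh7 for Western diet in KO livers stood at -0.29 ± 0.14 (adjusted p = 0.0985), and passed the threshold without that liver, KO mouse 4 on Western diet (-0.42, adjusted p = 0.012), with slide as a block (-0.29), with array weights (-0.43) and with normexp fitted without outlier spots (-0.32).

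Dhrs3 encodes a retinal reductase, which returns retinal to retinol and so limits retinoic acid formation. Its 2 probes, 133 bases apart at their starts on mm8 chromosome 4 (144194001 to 144194060 and 144194134 to 144194193), gave like differences. A_51_P282947 read 3.40, 3.12, 3.30, 3.0 and 3.27 in KO livers on Western diet, against 3.74, 3.56, 3.62, 4.15 and 3.80 in WT livers on Western diet. On normal diet it read 3.56, 3.37, 3.52, 3.50 and 3.37 in KO livers, against 3.92, 3.57, 3.78, 4.19 and 3.96 in WT livers. Every KO liver lay below every WT liver of the same diet.

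The Dhrs3 probes fell by 0.55 ± 0.13 and 0.56 ± 0.13 with genotype on Western diet (adjusted p = 0.000986 and 0.0014 in limma) and by 0.42 ± 0.13 and 0.45 ± 0.13 on normal diet (adjusted p = 0.0255 and 0.024). A_52_P387237 had no value for WT mouse 2 on Western diet and WT mouse 3 on normal diet, whose spots were outliers. Diet was not called for either probe, with differences of -0.24 and -0.26 in KO livers and -0.11 and -0.14 in WT livers. On Western diet both calls were lost with normexp (-0.25 and -0.55, adjusted p = 0.356 and 0.0936), and that of A_52_P387237 also with quantile normalization and in the authors' deposited matrix (-0.25 and adjusted p = 0.109 in each). On normal diet both calls were lost with median scaling (-0.47 and -0.54), quantile normalization (-0.31 and -0.34) and normexp (-0.48 and -0.44), and without KO mouse 5 or WT mouse 4 or 5. That of A_52_P387237 was also lost with slide as a block (-0.40), with normexp fitted without outlier spots (-0.36), in the authors' deposited matrix (-0.24) and with only the groups compared in the fit (-0.45). With single livers left out, that of A_51_P282947 was also lost without KO mouse 2 or WT mouse 1 and that of A_52_P387237 without KO mouse 1 (adjusted p 0.0505 to 0.0734 over these livers). Without KO mouse 5 on normal diet, A_52_P387237 was lower by -0.34 with Western diet in KO livers (adjusted p = 0.0289).

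Aldh1a1, the main retinal dehydrogenase of hepatocytes, was measured by 1 probe (A_51_P334942, mm8 chromosome 19, 20710371 to 20710430). It read 6.10, 5.88, 5.96, 6.77 and 5.76 in KO livers on Western diet, and 7.98, 8.23, 7.88, 7.81 and 7.84 in KO livers on normal diet. In WT livers it read 6.73, 7.12, 6.42, 7.12 and 6.56 on Western diet, and 7.78, 7.96, 7.77, 8.02 and 7.47 on normal diet. In each genotype all Western-diet livers lay below all normal-diet livers, while KO and WT livers on the same diet overlapped.

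Aldh1a1 fell 3.61-fold with Western diet in KO livers (-1.85 ± 0.18, adjusted p = 1.95e-07 in limma) and 2.01-fold in WT livers (-1.01 ± 0.18, adjusted p = 0.00237). It was below its normal-diet level on all 5 slides that held both KO groups (-2.35 to -1.04) and all 4 that held both WT groups (-1.34 to -0.85). The probe was saturated on 2 of 5 KO arrays on normal diet, and without those spots the KO difference was -1.93. The response differed between genotypes by -0.84 ± 0.26 (adjusted p = 0.0212), and KO livers were lower than WT livers on Western diet by -0.70 ± 0.18 (adjusted p = 0.00306). Both of these calls depended on the processing: under quantile normalization they were -0.60 (adjusted p = 0.072) and -0.29 (adjusted p = 0.143), with normexp -0.44 (adjusted p = 0.633) and -0.37 (adjusted p = 0.319). The first was also lost with median scaling (-0.89, adjusted p = 0.0678) and the second in the authors' deposited matrix (-0.21, adjusted p = 0.251), and on slide 4 the genotype difference on Western diet was 0.35.

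In the comparisons with KO Western-diet livers, Aldh1a1 was lower beside most hepatocyte markers tested. With Western diet in WT livers Aldh1a1 also fell, but most of these markers were not called. Of 7 hepatocyte markers that were not saturated on all arrays, 5 were lower with genotype on Western diet (35.8% of all probes). With Western diet in KO livers 6 of the 7 were lower (30.2% of all probes). In WT livers 1 fell with Western diet, where 2.43% of all probes fell (Apoa1, -0.48 ± 0.13, adjusted p = 0.0457 in limma). The Apoa1 probe was saturated on 3 of the arrays, and the saturated Rbp4 probe stood at -0.27 in that comparison. Hnf4a, a hepatocyte transcription factor, was lower by -0.95 ± 0.17 with genotype on Western diet (adjusted p = 0.000103). The other 4 listed markers on the array were saturated throughout. The part of the hepatocyte share of the tissue in these differences was not tested.

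Aldh1a2 encodes a retinal dehydrogenase that in adult tissues is known from stromal, mesothelial and some myeloid cells. Its probe (A_52_P58145, mm8 chromosome 9, 71094684 to 71094743) read -0.74, 0.95, 0.33, -2.39 and -0.64 in KO livers on Western diet, against -3.73, -3.55, -3.34, -3.78 and -3.62 in WT livers on Western diet. In KO livers on normal diet it read -3.48 to -2.94, and in WT livers on normal diet -3.66 to -2.81. All 5 KO Western-diet livers lay above the other 15, but they spread 10.1-fold among themselves, against 1.36- to 1.8-fold within the other groups. Aldh1a2 rose 8.61-fold with genotype on Western diet (3.11 ± 0.40, adjusted p = 2.67e-06 in limma) and 6.28-fold with Western diet in KO livers (2.65 ± 0.40, adjusted p = 2.29e-05). The diet response differed between genotypes by 3.02 ± 0.56 (adjusted p = 0.000693). On normal diet the genotype difference was 0.09 ± 0.40 (adjusted p = 0.899), and Western diet in WT livers gave -0.36 ± 0.40 (adjusted p = 0.663). The SE rests on a spread pooled over the groups, whose SDs were 1.27 in KO Western-diet livers and 0.18 to 0.30 in the others. It is thus too wide for these last differences and too narrow for those with KO Western-diet livers. Neither of the last differences was called under any alternative.

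The size of the Aldh1a2 difference depended on the background correction. With normexp it was 1.26 with genotype on Western diet, and the calls for Western diet in KO livers (1.08, adjusted p = 0.0844 in limma) and for the difference in diet response (1.14, adjusted p = 0.385) were lost. With normexp fitted without outlier spots the genotype and diet differences were 1.80 and 1.61, and in the authors' deposited matrix the genotype difference was 1.99. Markers of several other cell types moved with it. All 10 activated stellate cell and fibroblast markers rose with genotype on Western diet, Col1a1 by 5.36, and 9 of 10 rose with Western diet in KO livers. Their summed signal was 89.4, 153, 199, 93.4 and 142 in KO Western-diet mice 1 to 5, against 11.8 to 21.8 in WT livers on Western diet. It was 12.1 to 25.8 in KO and 12.3 to 14.2 in WT livers on normal diet. KO mouse 4, with the lowest Aldh1a2 of its group, had the second lowest sum, and mice 2 and 3, with the highest Aldh1a2, had the highest sums.

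Of 7 mesothelial markers, 4 rose in both comparisons, and Wt1 was at least 6.34-fold higher with Western diet in KO livers, as no KO array on normal diet was well above background. With genotype on Western diet Wt1 stood at 3.30, or 2.67 with dim values set to the lowest signal well above background, since 1 of 5 WT arrays measured it. Their sum was 1.92 to 6.40 in KO livers on Western diet, against 0.702 to 1.10 in WT livers on Western diet, 0.754 to 1.52 in KO livers on normal diet and 0.541 to 1.63 in WT livers on normal diet. Of 12 macrophage markers, 8 rose and 3 fell with genotype on Western diet, and of 6 dendritic cell markers 1 was higher and 1 lower. Of 9 cholangiocyte markers, 8 rose and 1 fell there, and all 9 rose with Western diet in KO livers. Of all probes 23% rose and 35.8% fell with genotype on Western diet. The macrophage sum was 273 to 311 in KO livers on Western diet and 15.2 to 98.1 in the other 15 livers. Each listed marker was well above background on at least 1 array, and the part of any of these cells in the Aldh1a2 result was not tested.

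**Figure D4:**
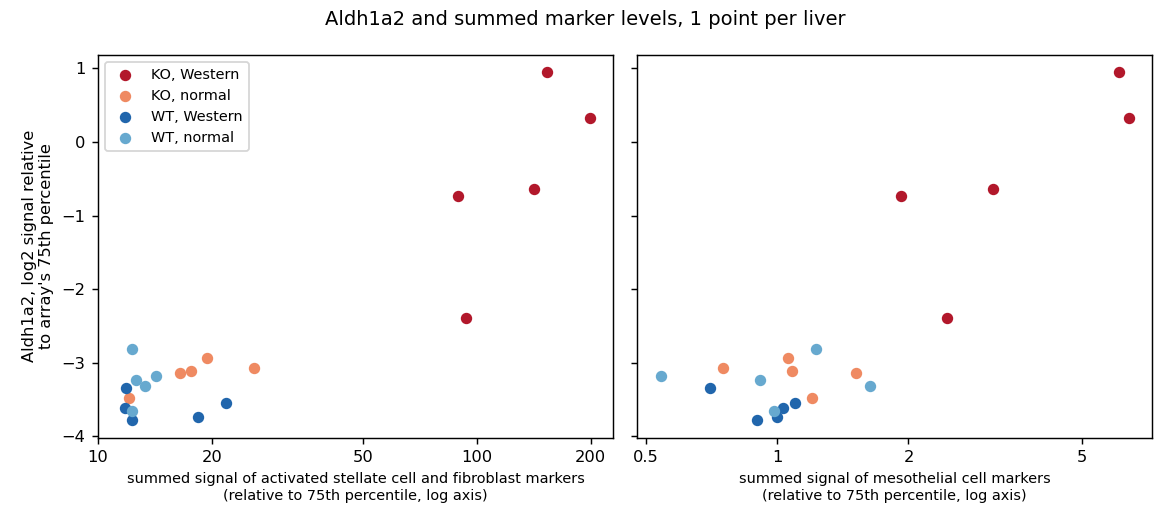
Aldh1a2 log2 signal relative to the 75th percentile of the array (y axis) against the summed signal of 10 activated stellate cell and fibroblast markers (left) and 7 mesothelial markers (right), on log axes, with 1 point per liver. The 5 KO livers on Western diet lay apart at the upper right, with fibroblast sums of 89.4 to 199, and the other 15 livers lay at sums of 11.8 to 25.8.

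Aldh1a3, the remaining retinal dehydrogenase of the family, was near the detection limit. Its probe A_52_P87843 (mm8 chromosome 7, 66269849 to 66269908) was well above background on 5 KO arrays on Western diet, 1 KO array on normal diet, 1 WT array on Western diet and no WT array on normal diet, so it entered the test through the KO Western-diet group. It averaged -4.25 ± 0.32 in KO livers on Western diet and -5.67 ± 0.81 in WT livers on Western diet (SD, n = 5 each), a difference of 1.42 ± 0.35 (adjusted p = 0.00201 in limma). With dim values set to the lowest signal well above background on each array, that difference was 0.83. For Western diet in KO livers the difference was 0.88 ± 0.35 (adjusted p = 0.0447), a call lost with median scaling, quantile normalization, no filter, the replicate number as a block, trended robust moderation and in the authors' deposited matrix (0.20 to 1.01, adjusted p 0.0506 to 0.0703), and without 12 of the 20 livers in turn (adjusted p 0.0505 to 0.105). These livers were KO mice 2, 3 and 4 and WT mice 1 and 3 on Western diet, and KO mice 1, 2, 3 and 4 and WT mice 1, 2 and 5 on normal diet. Both differences turned negative under normexp (-0.21 and -0.37), and with normexp fitted without outlier spots they were 0.06 and -0.23. The genotype-by-diet term of 1.19 ± 0.50 (adjusted p = 0.0847) passed the threshold with array weights (1.39) and without KO mouse 5 on normal diet (1.38), WT mouse 4 on Western diet (1.48) or WT mouse 3 on normal diet (1.47).

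Cyp26a1 encodes the hydroxylase that clears retinoic acid in liver. Its probe (A_52_P382149) lies at mm8 chromosome 19, 37766220 to 37766279, 416 kb from that of Rbp4. Its promoter is shown because it alone among the 12 RefSeq windows of 8 member genes (250 bases before to 50 after an annotated start; none for Aldh1a3) held one of the direct repeats searched. The motifs searched were the hexamer AGGTCA and its variants, in which the first was spelled AGTTCA, another was GGGTCA and the last variant was GGTTCA, in any pair and on both strands, with 2, 4 or 5 bases between; spacers of 2 and 5 are those of retinoic acid receptors and 4 that of LXR. The window below is chr19:37697558-37697857 of GRCm38.p6, plus strand, from RefSeq, a different build from that of the probes, and its capitals mark the repeat, which lies on the minus strand from 32 to 16 bases before the start.
Cyp26a1 promoter: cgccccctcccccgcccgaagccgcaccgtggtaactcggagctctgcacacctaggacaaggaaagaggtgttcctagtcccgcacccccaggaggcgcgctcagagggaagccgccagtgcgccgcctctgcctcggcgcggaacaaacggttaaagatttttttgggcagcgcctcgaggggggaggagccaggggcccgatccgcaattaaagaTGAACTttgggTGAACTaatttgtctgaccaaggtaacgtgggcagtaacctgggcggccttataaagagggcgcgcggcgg
Repeat read on the minus strand: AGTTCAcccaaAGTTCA
A spacer of 5 was found in 0.0974% of 32851 RefSeq promoter windows, a spacer of 2 in 0.268% and a spacer of 4 in 0.0822%. The match describes these letters and not a site bound in these livers.

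Cyp26a1 was highest in KO livers on normal diet. It read 2.00, 0.80, 1.74, 2.37 and 1.65 in KO livers on Western diet, and 3.40, 4.53, 3.63, 3.68 and 3.18 in KO livers on normal diet. In WT livers it read 1.73, 2.08, 1.99, 2.31 and 2.17 on Western diet, and 1.47, 0.33, 1.08, 1.19 and 1.14 on normal diet. From high to low the groups stood as KO normal diet, WT Western diet, KO Western diet and WT normal diet. The KO Western-diet livers overlapped both WT groups, and the KO normal-diet livers overlapped none.

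Cyp26a1 rose 6.25-fold with genotype on normal diet (2.64 ± 0.28, adjusted p = 2.91e-06 in limma), and stood at 1.99 to 3.30 within the 4 slides with arrays of both groups. On Western diet the genotypes differed by -0.34 ± 0.28 (95% interval -0.92 to 0.24, adjusted p = 0.301). Western diet lowered it 3.92-fold in KO livers (-1.97 ± 0.28, adjusted p = 1.1e-05), and the difference was negative on all 5 slides with both groups (-3.73 to -1.30). In WT livers Western diet raised it 2.02-fold (1.01 ± 0.28, adjusted p = 0.0387). The diet response thus differed between the genotypes by -2.98 ± 0.39 (adjusted p = 2.86e-05). The call in WT livers was lost with slide as a block (1.06, adjusted p = 0.0656), with the replicate number as a block (adjusted p = 0.0624), with no filter on dim probes (adjusted p = 0.0644), with normexp (0.85, adjusted p = 0.449) and without WT mouse 2, 3, 4 or 5 of either diet (0.84 to 1.05, adjusted p 0.0592 to 0.104), although all 5 Western-diet livers lay above all 5 normal-diet livers. The other 3 Cyp26a1 calls were kept under every alternative run.

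Genes that respond to retinoic acid were read beside Cyp26a1. Of 9 tested, 3 rose and none fell with genotype on normal diet, where 10.1% of all probes rose and 8.41% fell. On Western diet 5 rose and 1 fell, where 23% of all probes rose and 35.8% fell. With Western diet in KO livers, where Cyp26a1 fell, 3 rose and 2 fell (20.6% and 30.2% of all probes). Rarb, a retinoic acid receptor whose own gene retinoic acid induces, read 0.84, 0.87, 0.80, 0.64 and 1.06 in KO livers on Western diet, against -0.43, -0.08, -1.29, -1.06 and -1.38 in WT livers on Western diet. On normal diet it read 0.50, 0.35, 0.75, -0.24 and 0.05 in KO livers, against -1.48, -1.43, -1.35, -0.90 and -1.18 in WT livers. The KO livers lay above the WT livers on both diets, by 1.55 ± 0.23 on normal diet (adjusted p = 1e-04 in limma).

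Stra8, a gene named for its induction by retinoic acid, is 1 of the genes counted as higher on each diet. It was well above background on 4 of 5 KO arrays on Western diet, 3 of 5 KO arrays on normal diet and no WT array, so it entered the test only through the KO livers. Its level in KO livers was too close to the lowest signal well above background in WT livers to give a fold.

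Of 70 other genes of the retinoid pathway, 67 were on the array and 59 were tested. With genotype on Western diet 9 rose and 31 fell (median -0.47), where 58.8% of all probes were called (23% higher, 35.8% lower). With Western diet in KO livers 10 rose and 31 fell (median -0.68), where 50.9% of all probes were called (20.6% higher, 30.2% lower). With genotype on normal diet 7 rose and 9 fell (median -0.14), against 18.5% of all probes (10.1% higher, 8.41% lower). With Western diet in WT livers 5 rose and 2 fell (median -0.18), against 5.11% (2.68% higher, 2.43% lower). The medians of all probes are those given above.

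The retinal oxidation list, which leaves out the members, moved one way in the comparisons with KO Western-diet livers. Among the members Aldh1a1 was also lower there, while Aldh1a2 (3.11 and 2.65) and the dim Aldh1a3 probe (1.42 and 0.88) were higher. All 4 genes of the list, Aldh1a7, Aldh8a1, Aox1 and Aox3, were lower in KO than in WT livers on Western diet (by -1.13, -1.44, -2.11 and -2.83, where 35.8% of all probes were lower). They were also lower in KO livers on Western than on normal diet (by -1.94, -1.33, -1.26 and -2.74, where 30.2% of all probes were lower). Their diet response also differed between genotypes (-1.94, -1.23, -1.93 and -2.54). In WT livers Western diet instead raised Aox1 by 0.66 (adjusted p = 0.00176 in limma) and the other 3 were not called. Aldh1a7, a close relative of Aldh1a1, was higher in KO livers on normal diet (0.81), as Aldh1a1 was not (0.15 ± 0.18), and stood at 0.00 with Western diet in WT livers, where Aldh1a1 fell. Aldh1a1 and Aldh1a7 are similar in sequence, and cross-hybridisation between their probes was not tested.

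Of 18 retinol and retinal dehydrogenases and reductases, 11 fell and 1 rose with genotype on Western diet, where 35.8% of all probes fell and 23% rose. Retsat, retinol saturase, fell by 3.34 ± 0.29 (adjusted p = 2.79e-08 in limma), and Rdh9 rose by 2.24 ± 0.20 (adjusted p = 2.67e-08). Rdh11, a retinal reductase that is also regulated with sterol synthesis genes, fell with Western diet in both KO livers (-2.92 ± 0.14, adjusted p = 1.55e-10) and WT livers (-1.36 ± 0.15, adjusted p = 3.12e-05), as Aldh1a1 did. Dhrs9 had the opposite pattern to Cyp26a1 on normal diet: it fell by 2.10 ± 0.37 with genotype there (adjusted p = 0.000533) and rose by 3.34 ± 0.37 with Western diet in KO livers (adjusted p = 7.12e-07), with 4 of 5 KO arrays on normal diet well above background.

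Among genes of ester storage and hydrolysis, 7 of 11 fell and none rose with genotype on Western diet, beside the same shares of all probes. The carboxylesterase Ces1e fell by 4.67 ± 0.29 (adjusted p = 5.12e-10 in limma). Lpl, lipoprotein lipase, rose with Western diet by 3.95 ± 0.32 in KO livers and 4.60 ± 0.32 in WT livers (adjusted p = 2.22e-08 and 2.72e-07). Bco2, which cleaves carotenoids, fell with genotype by 3.62 ± 0.32 on Western diet and fell by 1.95 ± 0.32 on normal diet (adjusted p = 3.4e-08 and 0.000314), and was well above background on 3 of 5 KO arrays on Western diet. Lrp2, the endocytic receptor known for retinol uptake in kidney, was lower in KO livers by -4.99 ± 0.40 on Western diet and -3.53 ± 0.40 on normal diet (adjusted p = 8.64e-09 and 5.96e-06). Lrp2 was well above background on 1 of 5 KO arrays on Western diet, and with dim values set to the lowest signal well above background on their array the first difference was -4.80. Fabp5, which can carry retinoic acid, changed sign with diet. KO livers were higher by 2.29 ± 0.54 on Western diet (adjusted p = 0.00131), or by 1.92 with dim values so set, as 1 of 5 WT arrays was not well above background. On normal diet Fabp5 was not well above background on any KO array and was at least 4.36-fold lower in KO than in WT livers (adjusted p = 0.000249), against the lowest signal well above background on each array.

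Of 3 other genes of retinoic acid clearance, only Cyp2c39 changed. It fell with Western diet in KO livers by 4.46 ± 0.52 (adjusted p = 1.4e-06 in limma) and in WT livers by 1.85 ± 0.52 (adjusted p = 0.0463). Of all probes 30.2% fell with Western diet in KO livers and 2.43% in WT livers. Cyp26b1, the other Cyp26 enzyme tested, was not called: it stood at 1.48 for genotype on normal diet and -1.37 for Western diet in KO livers. Of 6 receptor genes tested, Rarb was the only one that rose. Rxra, Rxrb and Rxrg were lower in KO than in WT livers on Western diet (-0.43, -0.42 and -0.68), against -0.35 for the saturated Rbp4 probe in that comparison. There 23% of all probes were higher and 35.8% lower, so these receptor counts lay near the shares of the whole array.

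**Figure D5:**
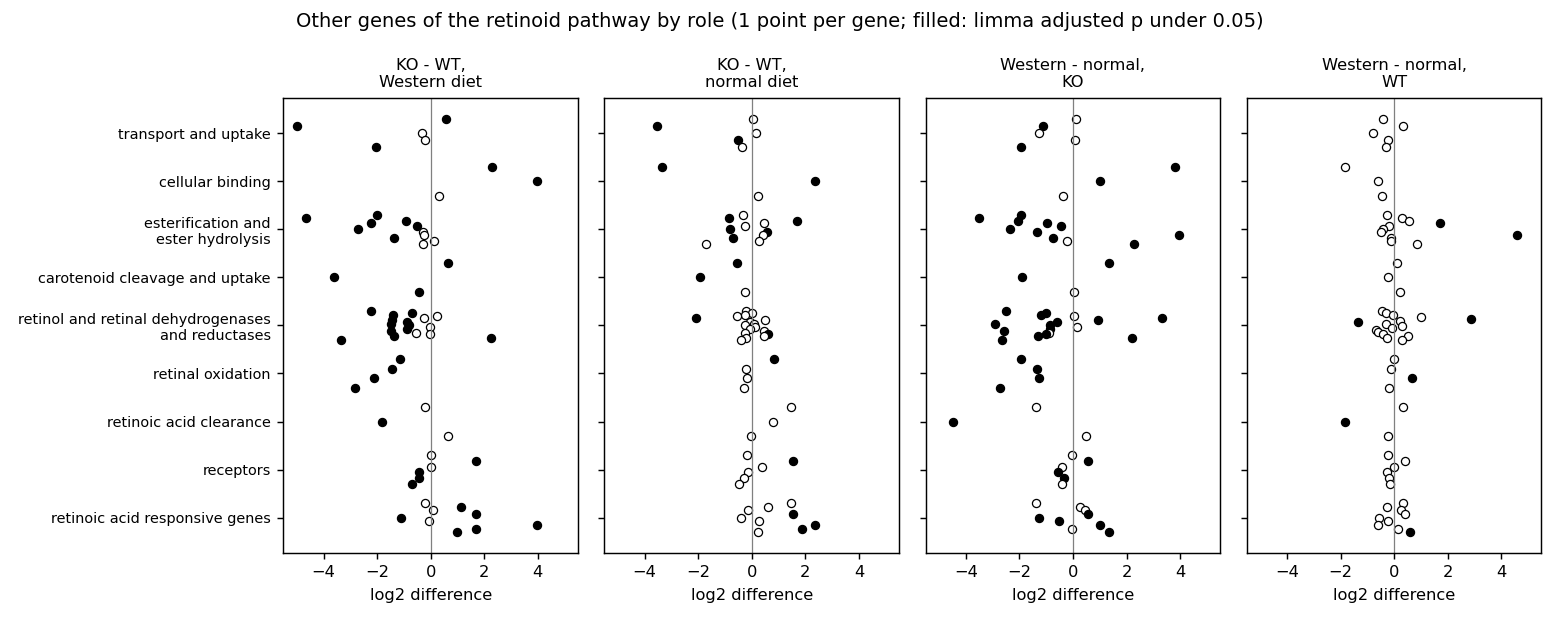
Log2 differences (x axis) of the other genes of the retinoid pathway by role (rows) in 4 comparisons, 1 point per gene and filled where adjusted p was under 0.05 in limma; a gene on 2 lists stands in both rows. The 4 retinal oxidation genes lay left of 0 in the genotype panel on Western diet and the KO diet panel, and most points of the WT diet panel are open.

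Genes with the most similar pattern to each member were taken by Pearson correlation over the arrays, as a description, since the arrays share scaling and fall into 4 groups. Cyp26a1 was nearest to Dclre1a (r = 0.861), Scd2 (0.853) and Prxl2b (0.844) over 20 arrays. Aldh1a1 was near to Erg28 (0.961), a gene of sterol synthesis, and Them7 (0.961). Aldh1a2 was nearest to Selenom (0.978), Tgfb3 (0.971) and Nxn (0.967). The brighter Lrat probe was nearest to Cyp26b1 (0.828), Colec11 (0.799) and Igfbp3 (0.787). Dhrs3 was nearest to Hbp1 (0.954) over the 18 arrays with a value.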

How the data were processed

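Liver RNA of 20 mice was measured on 20 single-colour (Cy3) arrays on 6 slides. Per the file headers, Agilent Feature Extraction 9.5.3.1 made the deposited intensity values, the processed signal being corrected for background by that software. The deposited matrix holds log2 values of 24493 probes, and the submitters' processing notes name Feature Extraction 9.5 and limma. How its scale was set, whether it was centred and how its probes were chosen is not given in the sources used here. Its columns correlated with the scanner values at r = 0.974 to 0.982 across probes and had medians of 7.73 to 7.78. Single-colour arrays have no ratio direction. The number of per-sample columns left unused was 0.

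Each array had 43379 spots besides 1639 control spots, which were left out. Spots of a probe were averaged after 105 to 270 outliers among the 43379 were dropped. The scale of each array was set by subtracting the 75th percentile from the log2 processed signal. A probe entered the test if it was well above background on 4 or more arrays in any group of 5, which kept 26130. One limma 3.58.1 model (lmFit, eBayes, two-sided, R 4.3.3) of 4 group means had 16 residual degrees of freedom. Benjamini-Hochberg adjustment covered all probes in each of 5 comparisons, with a threshold of 0.05. The replicates are different mice per the design text.

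Members and gene lists were chosen with earlier results of these data known. Named genes were all members, the deleted receptors, up to 4 called pathway genes per direction and comparison with the largest differences, up to 3 called markers per list, and the 3 nearest patterns of each called member. Genes of small lists, Rxr genes, Bco1, Aldh1a7 and Cyp26b1 were named after their values were seen. A list gene stands by its brightest probe. Slides served as batches, and slides that held both groups gave within-slide values. Probe coordinates are on mm8, as the files list them, and no mm8 gene annotation was used here, so exon or UTR positions are not given. Alternatives changed the scaling, the background correction, the source (deposited matrix), the filters, outlier and saturated spots, the probe kept per gene, the variance moderation, weights of arrays, blocks for slide or replicate number, and the arrays in the fit, each left out in turn. The fit was tested on simulated data. Figures used Python with matplotlib. Some genes that these rules name are not reported here.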

Additional observations from a re-analysis of the deposited data

Results flagged for a closer look

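In 2 of 44 groups of livers tested (42 of 5 and 2 of 4), 1 liver stood far from the others of its group, where chance flags about 1 in 20 groups. KO mouse 5 on Western diet had a Lrat level (A_51_P350033) of -1.41, against -3.15 to -2.76 in the other 4. WT mouse 3 on normal diet had an Aldh1a3 level (A_52_P87843) of -6.46, a value not well above background.

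The response to Western diet differed between KO and WT livers by a limma interaction term for 4 probes: Cyp26a1 (-2.98), Aldh1a2 (3.02), Lrat A_51_P350033 (-1.46) and Aldh1a1 (-0.84). For Cyp26a1 the response was -1.97 in KO livers and 1.01 in WT livers, and for Aldh1a1 it was -1.85 in KO livers and -1.01 in WT livers.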

How the results depend on the processing

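Of 55 differences (11 probes in 5 comparisons), 22 were called. Over 794 recomputed values under alternatives other than leaving out an array, 47 lost and 6 gained a call and 7 reversed; over 1100 with 1 array left out, 53 lost and 6 gained a call and 0 reversed. A further 37 and 19 changed sign while called in neither setting. The reversed values were Aldh1a3 A_52_P87843 with normexp (-0.21 for genotype on Western diet, -0.37 for Western diet in KO livers) and with normexp fitted without outlier spots (-0.23 for the second), and Adh1 A_52_P629895 with quantile normalization (0.25 and 0.22 for the same comparisons) and the deposited matrix (0.21 and 0.09). Called retinoid probes fell to 1 for genotype on normal diet with median scaling, quantile normalization and normexp, to 1 for genotype on Western diet, 3 for Western diet in KO livers and 1 for the interaction with normexp, and to 1 for Western diet in WT livers with normexp, no filter, slide block and replicate block. With 1 array left out the counts were 1 to 3 for genotype on normal diet and 1 to 2 for Western diet in WT livers. Over all probes, called counts were 4838, 15354, 1334, 13286 and 7062 in the order genotype on normal diet, genotype on Western diet, Western diet in WT, Western diet in KO and interaction. Normexp gave 583, 6221, 178, 5074 and 1181, array weights 7487 for the first, 1 probe per gene 10212 for the second, and median scaling 727 and leaving out WT mouse 2 on Western diet 857 for the third. Normexp was fitted on a background of -471 to -4.64 over all spots and -5.96 to -2.67 without outlier spots. Samples with the same number correlated in their deviations from group means at -0.34 to 0.43. Over 0.1 stood 4 pairs for Western diet in WT livers, 4 in KO livers, 2 for genotype on Western diet and 0 on normal diet. KO mice of the same number shared a slide across the diets, as did most WT mice. Pairing by number and a shared slide thus cannot be told apart, and the main fit models neither. The replicate block left 4 of 6 retinoid calls for Western diet in KO livers and 1 of 2 in WT livers. Saturation limits Rbp4, Adh1 and Aldh1a1, and signal near background limits Aldh1a3 and Adh7.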

Other observations

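Adh1 A_52_P629895, which was flagged as saturated on 6 arrays, was nearest in pattern to Rpl37a (r = 0.886), Rps18 (0.876) and COX2 (0.876) over 20 arrays. Adh7 was nearest to Depdc7 (0.831), and Aldh1a3 A_52_P87843 to Tbc1d2 (0.834) and Mcf2l (0.831).

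Carotenoid genes did not move together. Bco1, which cleaves carotenoids to retinal, was listed at 0.70, -0.18, -0.14, 0.07 and 0.52 in KO livers on Western diet, against -1.01, -1.09, -1.20, -1.34 and -1.08 in KO livers on normal diet, and rose there with Western diet by 1.34, while Bco2 fell by 1.91, with 3 of 5 KO arrays on Western diet well above background.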
